A study of Homo sapiens with 6 samples.

Results

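Of the genes of the short arm of chromosome 7 that lie in bands 7p12-p11 beside EGFR, 10 are described here, EGFR itself being left out: GRB10, SEC61G, LANCL2, VOPP1, MRPS17, NIPSNAP2, PSPH, CCT6A, SUMF2 and CHCHD2, in chromosomal order. Every probe set that the platform annotation pairs with 1 gene symbol, that of a member, was taken. This gave 13 probe sets for 8 of the 10 genes, among 11963 genes named on the arrays. SEC61G and SUMF2 are paired with no probe set in the annotation used here and were not analysed. The genes were chosen by their position and on their log2 differences between these same arrays, which were already known, so their values are given as a description and without a test.

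The arrays are 6 single-colour Affymetrix expression arrays, 1 per sample, of HSC2, an established human oral squamous carcinoma line. In 3 samples the labels give stable transfection with full-length, wild-type MALT1 cDNA (labelled MALT1). MALT1 is a paracaspase of NF-kappaB signalling. For the other 3 the labels give the empty vector (labelled mock), and all were grown in DMEM with serum. The title names MALT1-responsive genes as the question. The labels do not name the vector's promoter or say whether a line is 1 clone or whether replicates are separate cultures, so the p-values below rest on a spread between arrays that may be technical.

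Several facts of the whole series touch every value below. A MALT1 probe set, 210017_at, read 128, 124 and 107 on the arrays labelled MALT1 and 282, 242 and 236 on those labelled mock, a log2 difference of −1.08. The other MALT1 probe sets had −0.47 (208309_s_at) and −0.28 (210018_x_at, which did not pass the threshold of limma adjusted p under 0.05). All 3 go against the labels, and the groups are therefore called by their labels. This check sees an added cDNA only if it holds the probed part of the transcript, which was not analysed here. That limit bears on the lack of a rise, and why the signals were lower was not tested. Of 10 markers of simple and luminal breast epithelium, 10 passed as higher on the arrays labelled MALT1, where 21.1% of all genes did. Their summed signal was 74466 to 82989 there, against 8607 to 9348 on those labelled mock. Of 12 markers of squamous epithelium, the type HSC2 derives from, 8 were measured and 7 passed as lower, where 19.2% of all genes did. The summed signal of the 8 was 23799 to 26667 against 50988 to 60573. Of those that passed, DSC3, LAMB3 and DSG3, of desmosomes and the basement membrane, differed most (log2 differences −3.27, −3.08 and −2.66). The luminal markers KRT19, TFF1 and FOXA1 were dim on all mock arrays. The squamous keratin KRT16 was dim on all arrays labelled MALT1, lay lower there too and did not pass (limma adjusted p = 0.053). For 7 fibroblast markers the sums were 119 to 248 in the group labelled MALT1, against 126 to 203 in the group labelled mock. For 4 leukocyte markers they were 125 to 194 against 350.7 to 385, and PTPRC, the defining one, was dim on all 6 arrays. These sums hide single genes: LCP1 carried most of the leukocyte sum and passed as lower (log2 difference −1.66), while CD14, dim on all mock arrays, passed as higher. Among the fibroblast markers LUM, dim on all arrays labelled MALT1, passed as lower (at least 1.10-fold). The part of these differences in the results below was not tested, and in bulk RNA fewer cells of a type and less RNA per cell cannot be told apart. Whether the arrays of both labels are of the same cell line was not tested either.

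EGFR encodes a receptor tyrosine kinase of epithelial growth. The segment of chromosome 7 around it is known for DNA amplification in glioblastoma and in some squamous carcinomas, where the genes beside EGFR can be gained with it. Several members carry that history in an older name, such as ECOP for VOPP1 and GBAS for NIPSNAP2. Their proteins work in unrelated processes, from receptor signalling and protein folding to serine synthesis and mitochondrial translation. Genes that are gained or lost together as a block are known to change expression without sharing a pathway.

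The windows just upstream of 4 members are shown because GRB10 was higher, MRPS17 and NIPSNAP2 were lower by a similar amount and CHCHD2 differed least. They are the 250 bases before an annotated start, written 5′ to 3′ along the gene's strand, from RefSeq on build GRCh38.p14. Capitals mark the motifs searched, on either strand. The GC box is GGGCGG, and overlapping GC boxes run together. The CCAAT box is spelled by its name. The TATA box is TATAAA. The GRB10 window is at chr7:50793454-50793703 on the minus strand, the outermost of 5 listed for that gene. The MRPS17 window is at chr7:55951627-55951876 and the NIPSNAP2 window at chr7:55964335-55964584, both on the plus strand. The CHCHD2 window is at chr7:56106477-56106726 on the minus strand.
GRB10: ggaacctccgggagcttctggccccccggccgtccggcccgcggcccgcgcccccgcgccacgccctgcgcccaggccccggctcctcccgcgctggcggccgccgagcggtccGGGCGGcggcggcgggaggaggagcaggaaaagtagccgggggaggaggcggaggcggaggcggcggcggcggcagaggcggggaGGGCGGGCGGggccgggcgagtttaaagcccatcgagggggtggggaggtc
MRPS17: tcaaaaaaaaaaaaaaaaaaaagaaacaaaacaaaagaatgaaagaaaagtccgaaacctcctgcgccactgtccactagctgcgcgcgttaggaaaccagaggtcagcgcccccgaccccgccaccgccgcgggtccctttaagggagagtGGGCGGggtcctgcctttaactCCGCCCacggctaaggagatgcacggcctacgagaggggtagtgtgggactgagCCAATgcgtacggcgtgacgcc
NIPSNAP2: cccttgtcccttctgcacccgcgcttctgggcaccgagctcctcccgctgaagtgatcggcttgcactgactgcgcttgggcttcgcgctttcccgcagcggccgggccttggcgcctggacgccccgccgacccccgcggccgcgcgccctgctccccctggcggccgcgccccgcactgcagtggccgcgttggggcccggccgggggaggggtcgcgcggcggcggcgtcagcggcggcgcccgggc
CHCHD2: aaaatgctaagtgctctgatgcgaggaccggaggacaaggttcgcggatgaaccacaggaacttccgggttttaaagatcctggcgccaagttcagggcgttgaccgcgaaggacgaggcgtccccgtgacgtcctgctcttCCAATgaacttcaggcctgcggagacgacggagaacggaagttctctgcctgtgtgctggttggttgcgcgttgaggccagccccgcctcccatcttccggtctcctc

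These windows do not look alike. The GRB10 window is 81.6% G or C with 3 GC boxes, and the NIPSNAP2 window is 79.2% G or C with none of the 3 motifs. The MRPS17 window is 56.0% G or C with 2 GC boxes and 1 CCAAT box, and the CHCHD2 window is 59.2% G or C with 1 CCAAT box. None of the 4 holds a TATA box. Among all 35116 windows of this length in the table, 42.6% hold a GC box, 32.0% a CCAAT box and 10.7% a TATA box, and the median is 58.0% G or C. The table lists 17 windows for 7 of the 10 members, with 30.4% to 81.6% G or C. Of these, 9 hold a GC box, 6 a CCAAT box and 2 a TATA box. LANCL2, PSPH and CCT6A have no window in the table. A motif match is a description of letters only.

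In the measured part of the segment, the 7 genes from LANCL2 to CHCHD2 were lower on the arrays labelled MALT1, and GRB10, on the other side of EGFR, was higher. The groups of 3 arrays did not overlap in any of the 8 genes, which holds for 54.6% of all genes (29.0% higher and 25.6% lower). By the limma fit over all 22215 probe sets (Benjamini-Hochberg adjusted p under 0.05), 6 of the 8 genes passed as lower, where 19.2% of all genes did. GRB10 alone passed as higher, where 21.1% of all genes did, and CHCHD2 did not pass, so that 7 of 8 passed beside 40.4% of all genes. At least 2-fold lower were 5 of the 8, against 9.64% of all genes. Of the 13 probe sets, 3 passed as higher and 8 as lower, where 18.6% and 17.0% of all probe sets did, or 35.6% in all. The groups did not overlap in any of the 13, where this holds for 49.7% of all probe sets (26.4% higher and 23.3% lower). The median log2 difference over the 8 genes, labelled MALT1 minus labelled mock, was −1.67, against 0.08 over all 11963 genes. Since the members were proposed on this comparison, nothing further is read from these counts. The plot of signals by array shows the separation gene by gene.

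**Figure D1:**
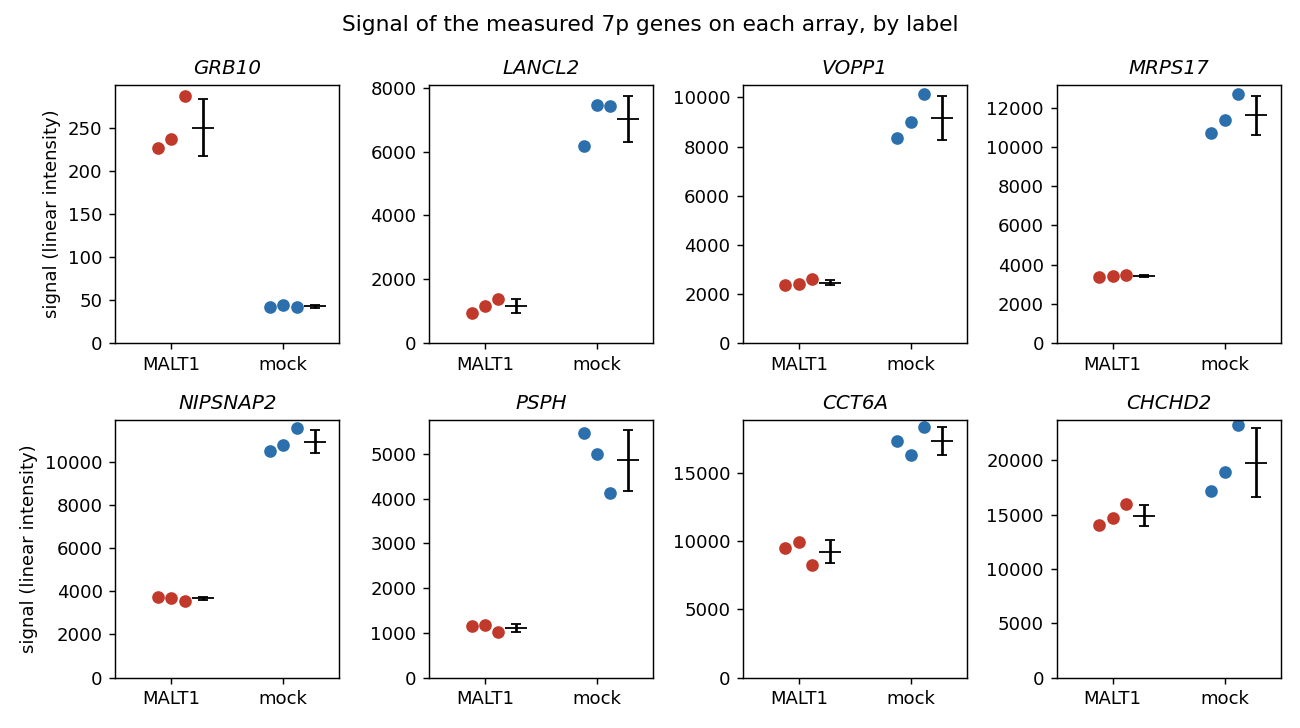
Linear signal of the brightest probe set of each measured gene on the arrays labelled MALT1 (red, left) and mock (blue, right), 1 point per array, with mean ± SD (n = 3 each) in black. GRB10 is the only panel in which the red points lie above the blue ones, and the 7 others lie the other way, with the smallest separation in CHCHD2.

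GRB10 encodes an adaptor that binds insulin and IGF1 receptors and restrains their signalling, and it is an imprinted gene. Its brightest probe set, 210999_s_at, read 226, 237 and 287 on the arrays labelled MALT1, against 41.1, 43.9 and 42.05 on the arrays labelled mock. All 6 arrays were above the dim level of 17.6, the highest signal of a bacterial trp control on any array, and the groups lay far apart. The log2 difference was 2.53 ± 0.12 SE, a signal ratio of 5.88. A second probe set, 209409_at, had a larger difference, reading 213, 217 and 189 against 21.4, 15.2 and 24.3 (log2 difference 3.31 ± 0.19 SE), and 1 of its mock arrays was below the dim level. The probe set 209410_s_at read 97.7, 93.4 and 121 against 58.7, 57.01 and 36.0 (log2 difference 1.05 ± 0.23 SE). These 3 probe sets had one direction and differed in size. The last one, 215248_at, was at or below the dim level on all 6 arrays, and no fold is given.

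LANCL2, the first protein-coding gene after EGFR in the RefSeq order, encodes a LanC-like protein related to bacterial lanthionine synthetases. It read 946, 1165 and 1381 on the arrays labelled MALT1, against 6179.6, 7459 and 7432 on the arrays labelled mock. All arrays labelled MALT1 were far below all mock arrays. Its log2 difference of −2.60 ± 0.18 SE was the largest among the genes that were lower, with 16.4% of the mock signal remaining by geometric means. EGFR next to it read 695, 725 and 510 against 5377, 5390.4 and 5603 (log2 difference −3.10 ± 0.16 SE), with 4 of its 6 probe sets passing as lower.

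VOPP1 encodes a membrane protein of endosomes and lysosomes. It read 2375, 2418 and 2584 on the arrays labelled MALT1, against 8346, 8999 and 10122 on those labelled mock. The mock arrays were spread more widely (9156 ± 898, mean ± SD, n = 3) than the arrays labelled MALT1 (2459 ± 110.1), and the gap between the groups was several times that spread. The log2 difference was −1.89 ± 0.11 SE, or 26.9% of the mock signal.

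MRPS17 encodes a protein of the small subunit of the mitochondrial ribosome. Its signal was nearly constant on the arrays labelled MALT1, at 3383, 3414 and 3454, against 10733, 11393 and 12700.1 on the arrays labelled mock. The log2 difference was −1.76 ± 0.10 SE, or 29.5% of the mock signal. NIPSNAP2, its neighbour, encodes a mitochondrial protein that acts in mitophagy with NIPSNAP1. NIPSNAP2 read 3750.3, 3684 and 3574 against 10495.5, 10762.5 and 11551.5, a log2 difference of −1.57 ± 0.08 SE, or 33.6% of the mock signal. These neighbours had similar differences, and neither group of 3 overlapped the other in either gene.

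PSPH encodes phosphoserine phosphatase, which releases serine in the last step of its synthesis. The brighter probe set, 205194_at, read 1146, 1174 and 1016 on the arrays labelled MALT1, against 5461, 4997 and 4122 on the arrays labelled mock (log2 difference −2.12 ± 0.14 SE). The other, 205048_s_at, read 610.4, 618 and 655 against 3386, 3449.8 and 3513 (log2 difference −2.46 ± 0.08 SE). Both probe sets thus gave PSPH a larger difference than those of MRPS17 and NIPSNAP2, although it lies farther from EGFR in the gene order. RefSeq lists 1 pseudogene named after PSPH, and cross-hybridisation with it was not tested.

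CCT6A encodes the zeta subunit of the CCT chaperonin, the ring that folds actin, tubulin and other proteins. The s_at probe set, 201327_s_at, read 9491, 9889.8 and 8270.2 on the arrays labelled MALT1, against 17275, 16292 and 18362.5 on the arrays labelled mock (log2 difference −0.91 ± 0.11 SE). The probe set 201326_at read 5024, 5066 and 4839 against 12994, 13230.5 and 14716 (log2 difference −1.45 ± 0.09 SE). The difference of this gene thus depends on the probe set, from 36.5% to 53.2% of the mock signal. RefSeq lists 5 pseudogenes named CCT6P, so its signal could include RNA of those copies, which was not tested. The brighter probe set ranked 3, 14 and 27 among all probe sets on the mock arrays, and the part of a ceiling in its smaller difference was not tested.

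CHCHD2, the last gene, encodes a mitochondrial protein with a twin CX9C motif that supports oxidative phosphorylation. It read 14061, 14693 and 15959.7 on the arrays labelled MALT1, against 17164, 18924 and 23258 on the arrays labelled mock. All 3 mock arrays were higher, but the log2 difference of −0.40 ± 0.14 SE was the smallest of the 8 genes, and CHCHD2 did not pass. It was the brightest of the 22215 probe sets on mock replicates 2 and 3 and ranked 4 on mock replicate 1, while it ranked 83 to 97 on the arrays labelled MALT1. The deposited values carry no saturation flag, and the part of a ceiling in this small difference was not tested. RefSeq lists 11 pseudogenes named after CHCHD2 and 6 named after MRPS17.

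**Figure D2:**
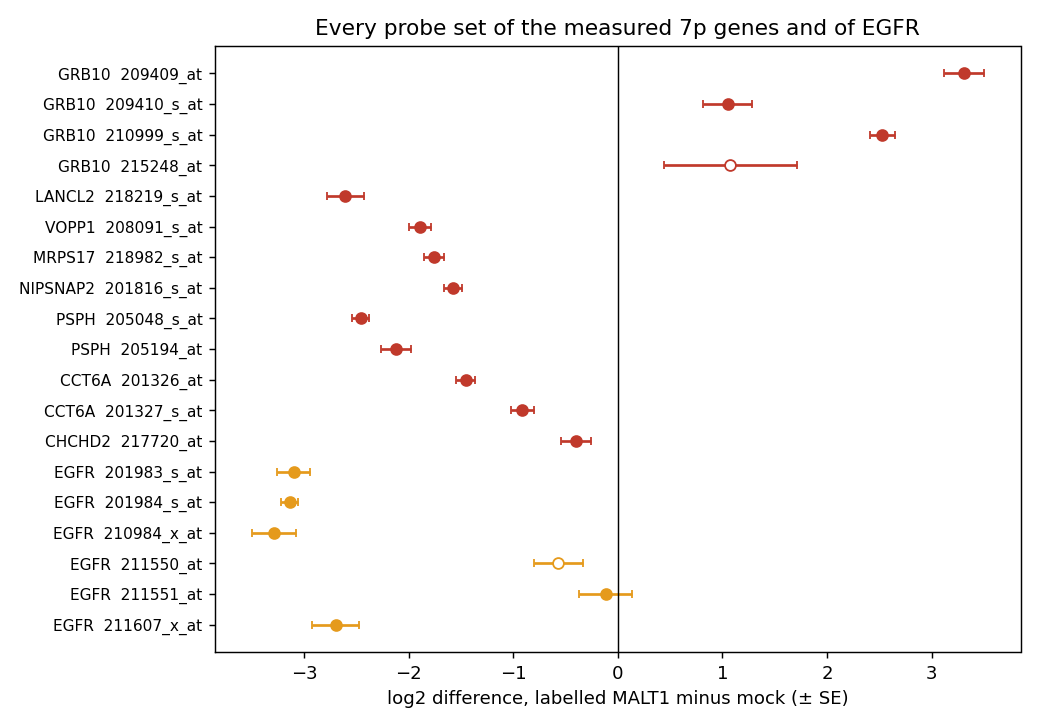
Log2 difference, labelled MALT1 minus labelled mock (± SE of the limma fit, 3 arrays each), of all 13 probe sets of the measured genes (red) and the 6 of EGFR (orange). Open points are probe sets at or below the dim level on all 6 arrays, and probe sets of 1 gene lie on the same side of 0 but differ in size.

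In chromosomal order from EGFR towards the centromere, the log2 differences were −3.10 for EGFR, −2.60 for LANCL2, −1.89 for VOPP1, −1.76 for MRPS17, −1.57 for NIPSNAP2, −2.12 for PSPH, −0.91 for CCT6A and −0.40 for CHCHD2. VOPP1 (SE 0.11), MRPS17 (SE 0.10) and NIPSNAP2 (SE 0.08) lay close together, and the differences between neighbours were not tested. The sizes did not fall steadily, since PSPH had a larger one than VOPP1, MRPS17 and NIPSNAP2. The order also depends on the probe set. With probe sets averaged, EGFR had −2.15, smaller in size than LANCL2, PSPH had −2.29 and CCT6A −1.18. The probe set 201326_at gave CCT6A −1.45, near the value of NIPSNAP2. The part of a ceiling in the small differences of CCT6A and CHCHD2 was not tested. Of the 18 protein-coding genes that RefSeq places from GRB10 to CHCHD2, 11 were measured. PHKG1, a phosphorylase kinase subunit between CCT6A and CHCHD2, was at or below the dim level on all 6 arrays. The plot in gene order holds measured genes only, so the borders of the lower stretch are not resolved.

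**Figure D3:**
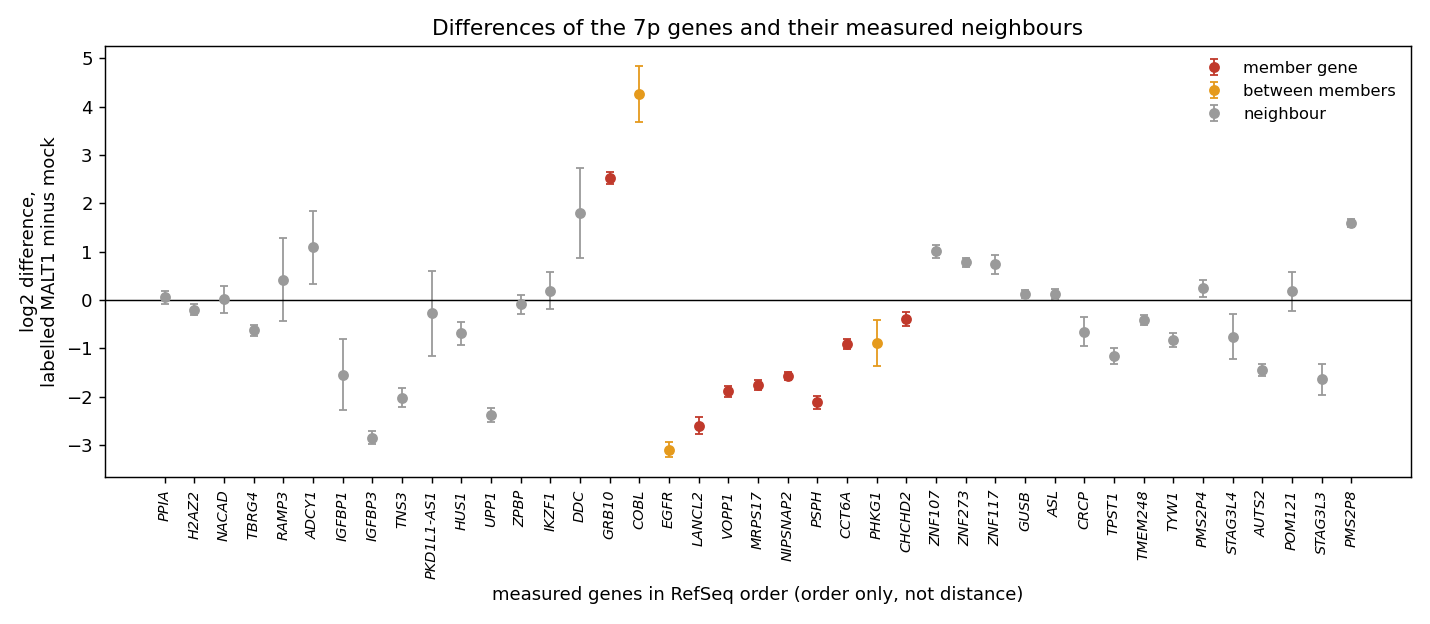
Log2 difference (± SE, 3 arrays per group) of the measured members (red), of the measured genes between them (orange) and of the 15 nearest measured genes on each side (grey), placed by RefSeq order without regard to distance. EGFR to CHCHD2 lie below 0, GRB10 and COBL above it, and the neighbours on both sides lie on either side of 0.

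The higher level of GRB10 was shared by COBL, which encodes an actin nucleator and is its next measured neighbour towards EGFR. COBL read 227, 217 and 233 on the arrays labelled MALT1, against 26.6, 9.16 and 4.78 on the arrays labelled mock (log2 difference 4.27 ± 0.58 SE, limma adjusted p = 0.004). Its mock level is poorly measured, with 1 of the 3 arrays above the dim level, and the difference was 3.10 with a pseudocount of 16. RefSeq places 4 protein-coding genes between GRB10 and EGFR, and COBL is the only one of them measured. On the other side of GRB10, DDC, which encodes the decarboxylase of dopamine and serotonin synthesis, averaged 20.6 ± 17.9 and 4.06 ± 3.13 in the same order (SD, n = 3 each), overlapped between the groups and did not pass (adjusted p = 0.21). IKZF1, a lymphoid transcription factor, had 43.8 ± 17.1 and 38.1 ± 12.5 and did not pass either (adjusted p = 0.75).

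Among the 15 measured genes before GRB10, 4 passed as lower, where 19.2% of all genes did, and 11 did not pass. Their median log2 difference was −0.20. This median was −0.42 with quantile normalization, −0.33 with median centring and −0.04 with a pseudocount of 16. Without MALT1 replicate 1 it was 0.01, the only alternative with a positive value. Over the 6 genes left when probe sets of low mean signal were dropped, it was −1.36. Without MALT1 replicate 2, 1 gene also passed as higher. The 3 with the largest difference were IGFBP3, a carrier of insulin-like growth factors, UPP1, a uridine phosphorylase, and TNS3, a focal adhesion tensin. IGFBP3 fell to 116 ± 18.8 on the arrays labelled MALT1, against 833 ± 16.05 with the mock label (SD, n = 3 each; limma adjusted p = 0.00016). UPP1 fell to 221 ± 38.5 against 1139.5 ± 67.1 (adjusted p = 0.00031), and TNS3 to 272 ± 66.1 against 1086 ± 45.8 (adjusted p = 0.0012). Lower signals of that size were therefore not confined to the stretch from EGFR to CHCHD2. Over the 154 measured genes of the chromosome before GRB10, 14 passed as higher and 47 as lower, beside 21.1% and 19.2% of all genes.

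Beyond CHCHD2, where the centromere lies, the first 3 measured genes went the other way. The zinc finger genes ZNF107, ZNF273 and ZNF117 rose by 1.01, 0.78 and 0.74 on the log2 scale (limma adjusted p = 0.0031, 0.0033 and 0.044). All 3 were read by x_at probe sets (205739_x_at, 215239_x_at and 207605_x_at). Cross-hybridisation among similar zinc finger genes was not tested, so these may not be 3 separate readings. Of the 15 measured genes after CHCHD2, 4 rose and 5 fell, where 21.1% and 19.2% of all genes passed as higher and lower. Their median log2 difference was 0.12. This median has no settled sign. It was −0.22 without MALT1 replicate 3, −0.03 without mock replicate 1 and −0.01 with median centring. Over the genes left when probe sets of low mean signal were dropped, it was −0.41. The lower count was 3 without mock replicate 1, without mock replicate 3 and with the replicate block. PMS2P8 and STAG3L3, which belong to near-identical families and are uncertain as single genes, had log2 differences of 1.60 and −1.64, and STAG3L3 lost its call under 3 of 11 alternatives. AUTS2, which acts in Polycomb complexes, fell by 1.45 (adjusted p = 0.00078). Over the 374 measured genes after CHCHD2, 74 passed as higher and 59 as lower, beside 21.1% and 19.2% of all genes. Over the 530 genes of the chromosome other than the members and EGFR, the median log2 difference was 0.03.

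Partners of the members' proteins are encoded elsewhere in the genome. The counts of these lists stand beside 21.1% of all genes that passed as higher and 19.2% that passed as lower. The members were chosen in part on their own differences, so each contrast of a member with its partners is a description only. Of the other CCT subunits, 6 of 7 were measured, and their log2 differences ran from −0.14 to 0.32 with a median of 0.24, against −0.91 for CCT6A. CCT5 rose to 9321 ± 579 on the arrays labelled MALT1, against 7438 ± 321 on those labelled mock (limma adjusted p = 0.046), a call lost under 9 of 12 alternatives, and the other 5 did not pass. CCT8 had 8966 ± 361 and 9911 ± 477 in the same order (adjusted p = 0.27). The differences of the measured partners were thus small in either direction, and each lay above that of CCT6A.

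Of 29 other proteins of the small mitochondrial ribosomal subunit, 21 were measured, 11 rose, 3 fell and 7 did not pass, with a median log2 difference of 0.36, against −1.76 for MRPS17. MRPS34 rose to 1542 ± 33.96 on the arrays labelled MALT1, against 474 ± 27.2 on those labelled mock (limma adjusted p = 0.00017), and MRPS14 to 2026 ± 99.0 against 1003 ± 70.7 (adjusted p = 0.0012). MRPS31 fell to 738 ± 39.8 against 1579 ± 62.9 (adjusted p = 0.00068), a log2 difference of −1.10, the lowest of the list. None of the 21 was as low as MRPS17, which was chosen with its own difference known, so nothing further is read from this. The count of lower members was 1 without MALT1 replicate 1, MALT1 replicate 3 or mock replicate 3, and with the replicate block.

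Around PSPH, 6 serine and one-carbon enzymes were measured, of which 2 rose and 1 fell, with a median log2 difference of 0.26, or 0.41 without MALT1 replicate 1. PSAT1, the aminotransferase of the step before PSPH, fell to 72.9 ± 31.1 on the arrays labelled MALT1, against 393 ± 22.8 on those labelled mock (log2 difference −2.49 ± 0.30 SE, limma adjusted p = 0.0026). PHGDH, the first enzyme of the pathway, had 582 ± 32.7 and 462 ± 71.9 in the same order and did not pass (adjusted p = 0.14). Of the 3 enzymes of serine synthesis, PSPH and PSAT1 thus had lower signals. The mitochondrial folate enzyme MTHFD2 rose by 0.50 on the log2 scale (adjusted p = 0.012). SHMT2, which uses serine, rose by 0.42 (adjusted p = 0.029), a call lost under 7 of 12 alternatives, among them those without MALT1 replicate 1 or any 1 of the mock replicates.

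Of 14 other twin CX9C proteins, 7 were measured, 5 rose and 1 fell, with a median log2 difference of 0.57, against −0.40 for CHCHD2. COX6B1, a cytochrome c oxidase subunit, rose to 4807 ± 92.8 on the arrays labelled MALT1, against 3102 ± 96.5 on those labelled mock (limma adjusted p = 0.0029). The complex I subunit NDUFB7 rose to 1460.2 ± 26.0 against 955 ± 21.2 (adjusted p = 0.0029), though it did not pass with its probe sets averaged, at a similar log2 difference of 0.60 (adjusted p = 0.072). CHCHD7 fell by 0.92 on the log2 scale (adjusted p = 0.0065), and NDUFA8 did not pass (adjusted p = 0.092).

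Beside GRB10, 8 insulin and IGF receptor and adaptor genes were measured, 3 rose, 1 fell and 4 did not pass, with a median log2 difference of 0.46. It was 0.20 without mock replicate 2 and 0.18 with probe sets averaged. GRB14, a paralogue of GRB10 with a similar role, read 281 ± 22.9 on the arrays labelled MALT1 and was dim on all mock arrays, at 2.90 ± 1.07, so that it was at least 15.9-fold higher (limma adjusted p = 7.8e-05). GRB7, the other paralogue, had 25.3 ± 2.48 and 18.9 ± 12.7 in the same order and did not pass (adjusted p = 0.49). The adaptor GRB2 rose by 0.96 and the insulin receptor INSR by 0.71 on the log2 scale (adjusted p = 0.0014 and 0.0042), though INSR did not pass with its probe sets averaged (adjusted p = 0.53). The 1 that fell was SHC1, an adaptor that also serves EGFR, named after its value was seen, by 0.53 (adjusted p = 0.025). The count of lower genes in this list was 0 without MALT1 replicate 2 or 3, without any 1 of the mock replicates and with the replicate block.

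**Figure D4:**
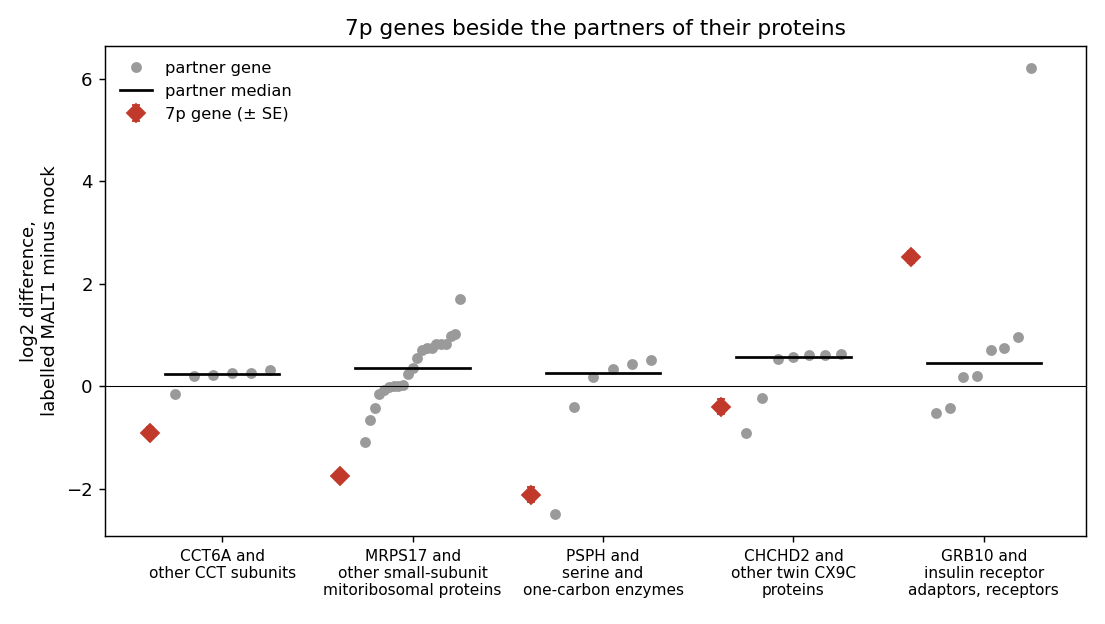
Log2 difference, labelled MALT1 minus labelled mock, of 5 members (red diamonds, ± SE) beside the measured partner genes of their proteins (grey points, ordered by value) and the partners' median (black line). CCT6A and MRPS17 lie below all their measured partners, PSPH above PSAT1 only, CHCHD2 above CHCHD7 only, and GRB10 below GRB14 only. The members were chosen with their own differences known, so these positions are a description.

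Paralogues of members had 5 of 10 measured, 2 higher (NIPSNAP1, and GRB14 from the list beside GRB10) and 3 that did not pass. Their median log2 difference was 0.74, the value of GRB7, which did not pass. This median ranged from 0.32 to 1.56 over the alternatives (1.14 without mock replicate 1 and 1.13 without mock replicate 3). The 1.56 was that of the 3 paralogues left when probe sets of low mean signal were dropped. NIPSNAP1, the close paralogue of NIPSNAP2, rose to 1151 ± 57.4 on the arrays labelled MALT1, against 390.3 ± 16.1 on those labelled mock (log2 difference 1.56 ± 0.09 SE, limma adjusted p = 0.00022), whereas NIPSNAP2 had −1.57. CCT6B, the testis-enriched paralogue of CCT6A, had 117 ± 36.5 and 199 ± 47.8 in the same order and did not pass (adjusted p = 0.099). The count of lower paralogues was 1 with median centring and when probe sets of low mean signal were dropped. For the partners of SEC61G, which was not analysed, 4 of 10 translocon genes rose and 2 fell, with a median log2 difference of 0.13 that changed sign with median centring. Among them TRAM1 and SSR2 had differences of −1.05 and 0.63 on the log2 scale (adjusted p = 0.0014 and 0.0032). SEC61A2 rose by 0.96 (adjusted p = 0.029), a call lost under 4 of 12 alternatives, among them those without any 1 of the MALT1 replicates or mock replicate 1. For SUMF2, likewise not analysed, 8 of 10 sulfatases were measured, 3 rose and 1 fell. The 1 that fell was IDS, by 0.63 on the log2 scale (adjusted p = 0.011), and the lower count was 2 without MALT1 replicate 3 and 0 with probe sets averaged. Of those that rose, SGSH, STS and GALNS had 2.37, 1.43 and 1.08 (adjusted p = 0.00038, 0.0053 and 0.00074).

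The array-by-array pattern of LANCL2 was matched outside the members most closely by AXL, DPYSL3, CCN1, BMAL2 and TRPM2. Likeness was the root mean square difference between log2 profiles over the 6 arrays, each centred on its own mean, and it was 0.055, 0.11, 0.12, 0.12 and 0.14 for these genes. They lie on chromosomes 19, 5, 1, 12 and 21. With 6 arrays in 2 groups this measure mostly reads the size of the group difference. AXL, a receptor tyrosine kinase, read 283, 331 and 393 on the arrays labelled MALT1, against 1904, 2054 and 2222 on those labelled mock.

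Of the 7 genes from LANCL2 to CHCHD2, 5 had their highest mock signal on mock replicate 3, where 32.8% of all genes did. On the arrays labelled MALT1, 4 of the 7 were highest on replicate 3, a share near the 50.5% of all genes. On that array fewer probe sets were dim, 25.6% against 31.7% to 33.3% on the other 5. The 3′ to 5′ signal ratio of the ACTB control probe sets, a measure of RNA integrity, was also highest there. It was 4.46 against 3.59 to 3.98 on the other 5, and that of GAPDH was 1.12 against 0.95 to 1.05. The part of RNA quality in the values was not tested. The gap between the groups was larger than the spread within either group in every measured gene except CHCHD2. The CHCHD2 mock arrays ran from 17164 to 23258, and its highest array labelled MALT1 read 15959.7.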

How the data were processed

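Each sample's RNA was hybridised to 1 Affymetrix array. The values are linear signal intensity per probe set in the table the authors deposited, scaled so that the mean without the lowest and highest 2% lies at 500.15 to 500.17 on every array. The sources used here do not name the program that made them. The members, gene lists and markers were chosen with earlier results of these data known.

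After 62 control probe sets were left out, log2(signal + 1) of 22215 probe sets was fitted with limma 3.58.1 (lmFit and eBayes, R 4.3.3), labelled MALT1 minus labelled mock, with Benjamini-Hochberg adjustment over all of them and no filter. Adjusted p-values are two-sided and from this fit unless an alternative is named beside them, and the script was tested on simulated data. The platform annotation pairs 19064 probe sets with 1 symbol, 1043 with several and 2108 with none, and 19052 matched a RefSeq gene. A gene took its probe set of highest mean signal. Gene order is that of RefSeq GRCh38.p14. Probe positions were not analysed here.

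The genes named were the members, EGFR, measured genes between members, in each partner list, marker list or flank of 15 genes the 3 with the largest difference among those that passed, and the 5 nearest profiles to LANCL2. DDC, IKZF1 and the ZNF genes were named by position, and CCT8, PHGDH, NDUFA8, GRB7, SHC1, CCT6B, IDS, KRT16 and PTPRC after their values were seen. The number of arrays, 3 per group, limits the precision.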

Additional observations from a re-analysis of the deposited data

How the results depend on the processing

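Of 96 member results under 12 alternatives, 94 kept their direction and side of the threshold. CHCHD2 passed with quantile normalization (−0.50) and with the upper part of the signal only (−0.40), and the cause was not tested. The count of members higher was 1 under every alternative, and that of members lower 6 or 7. The median log2 difference of the members was −1.80 with median centring, which shifts all genes by −0.13, and −1.71 to −1.61 with 1 replicate left out. With the replicate block, 5808 probe sets passed, against 7917 without it, and the 1 higher and 6 lower members still passed. Deviations of same-numbered arrays from their group means had correlations of 0.015, −0.026 and −0.014. Over the upper part of the signal these were 0.044, 0.0074 and 0.045. With 3 arrays per group, values this small cannot show whether the numbers pair the samples. With 1 replicate left out, 6165 to 7330 probe sets passed. With median centring 3179 were higher and 4193 lower, with quantile normalization 3964 and 4051, against 4130 and 3787 as reported. CCT5 lost its call under 9 alternatives, SHMT2 under 7, SEC61A2 under 4, STAG3L3 under 3 and NDUFB7, INSR and CD14 under 1 each. Among lists, the count of higher CCT subunits ran from 0 to 4, of higher translocon genes from 2 to 5, of higher serine enzymes from 1 to 3, and that of lower sulfatases from 0 to 2. Signals at or below the dim level limit COBL, DDC and GRB14 on the mock arrays.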
